A study of Oryza sativa with 36 samples.

Results

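The basic helix-loop-helix (bHLH) transcription factors of the rice flag leaf were followed across 36 RNA-seq libraries. The genes were picked by their annotation: 133 of the 34623 genes common to all tables carried a deposited description with "helix-loop-helix" or "bHLH", and 2 of these (LOC_Os01g72370 and LOC_Os03g26210) were left out by rule, which gave 131 genes. Another 2 genes with such a description were listed only in the table of early-season WFYT025, at 0 FPKM, and were not used. Of the 131, 56 reached 1 FPKM (fragments per kilobase of transcript, scaled to the mapped fragments of the library) in at least 3 libraries and were tested, with 18585 genes in all. The libraries came from flag leaves of the super-hybrid rice WFYT025 and of its parents, the varieties WFB and CHT025. Each variety was sampled on day 1 and day 10 after it flowered, both as early rice (early season) and as middle rice (middle season). Each of the 12 combinations had 3 libraries, so every group is a variety, a day and a season, and no mutant, transgene or treatment was part of the design. Whether the 3 libraries of a group are separate plants is not stated in the labels, and p-values therefore reflect a spread among libraries that may be technical. The season includes all growing conditions that went with it. Any sampling or sequencing batch that coincided with the season cannot be told apart from it. Any sampling date, hour, handling or batch that coincided with a variety, a day or a single group cannot be told apart from it either.

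Proteins of the bHLH family bind DNA as pairs: a basic region touches the DNA, often at a short motif called the E-box, and the helix-loop-helix region joins the partners. Atypical members without a working basic region pair with the others and keep them off DNA. In plants the family includes the phytochrome-interacting factors that act downstream of red-light receptors, the MYC-type factors of jasmonate signalling that are held back by JAZ repressors, the activators of the response to iron shortage, and the factors that build stomata and the tapetum of the anther. The flag leaf is the uppermost leaf and supplies much of the sugar for the filling grain. Gene names used here, such as RERJ1 or OsPRI2, are those in common use for these loci; the deposited tables give only locus numbers and descriptions.

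In total FPKM and in detected genes the libraries were alike, but the median level of all tested genes differed between groups. The median of log2(FPKM + 1) was 2.65 in WFYT025 on day 1 and 3.06 in CHT025 on day 10, both of the middle season. These were the lowest and the highest group. FPKM summed to between 532276 and 567391 per library, between 21656 and 23811 genes were above 0, and Pearson's r across genes between libraries of one group was 0.9902 to 0.9956. Summed FPKM of 5 leaf mesophyll markers was 25745 to 47287 per library, and that of 4 anther and tapetum markers was at most 0.6, with LOC_Os11g37280 at 0 throughout. Of the 4 stomatal lineage markers, which are bHLH genes themselves, OsSPCH1 and OsSPCH2 were at 0 in all libraries. Endosperm storage genes, 4 markers none of which was at 0 throughout, summed to 2.93 to 235.75 FPKM per library. Seasons and varieties were deposited in separate tables, so levels set across them rest on the per-library FPKM scale. The files hold no read counts, so the depth is unknown and no counting interval can be given.

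Most bHLH genes were silent or nearly so in these leaves. Of the 131, 31 were listed at 0 in all 36 libraries and 44 were above 0 but failed the filter. The other 56 passed, against 18585 of the 34623 genes in all, so failing the filter was not particular to the family. The highest value among the 75 untested genes was 1.44 FPKM, in LOC_Os09g34330. LOC_Os01g06640, which reached 1.09 FPKM, was also just outside, and LOC_Os01g09990, with a mean of 0.249 FPKM over the libraries, was just inside. LOC_Os01g09990 passed through WFB on day 10 of the middle season only and LOC_Os03g59670 through WFB on day 1 of the early season only, so their differences from these groups follow from the filter and are no finding. They add at most 2 to the counts of comparisons that use these groups. Expressed members were concentrated in few genes. The 10 most abundant took 64.1% of the family's FPKM, 22 genes averaged at least 10 FPKM, 25 averaged 1 to 10 and 9 averaged less than 1.

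LOC_Os10g40740, described only as a helix-loop-helix DNA-binding domain protein, was the most abundant member in level and alone took 24.0% of the family's FPKM. Its level was 115 FPKM in the lowest library, 181 in the median library and 235 in the highest. It was lowest in CHT025 on day 1 of the early season (118 ± 2.28 FPKM, mean ± SD, n = 3 here and throughout) and highest in WFB on day 10 of that season (232 ± 2.15). Next in level, by the mean of the 36 libraries, came OsPRI1 with 52.8 FPKM, OsPRI2 with 49.3, OsbHLH148 with 47.2, LOC_Os08g39630 with 38.7 and RERJ1 with 35.5. The group means of OsPRI1 ran from 33.3 to 72.2 FPKM, and the mean of RERJ1 rested mostly on 1 group, as the values below show.

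The summed level of the family depended strongly on the group. It was 480 ± 6.57 FPKM in WFB on day 1 of the early season and 1389 ± 73.3 FPKM in WFB on day 1 of the middle season, and the other 10 groups lay between 549 and 909 FPKM. Across the 12 group means, the distance between a gene's highest and lowest group had a median of 1.20 on the log2(FPKM + 1) scale in the 56 bHLH genes and 1.20 in all tested genes. It exceeded 2 in 15 bHLH genes and stayed under 1 in 18, against 21.8% and 37.7% of all tested genes. More members peaked in WFB on day 1 of the middle season than in any other group, 10 of 56 (17.9%), against 8.06% of all tested genes that peaked there. Values of this kind come from whole leaves, where fewer cells of a type and less RNA per cell cannot be told apart.

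**Figure D1:**
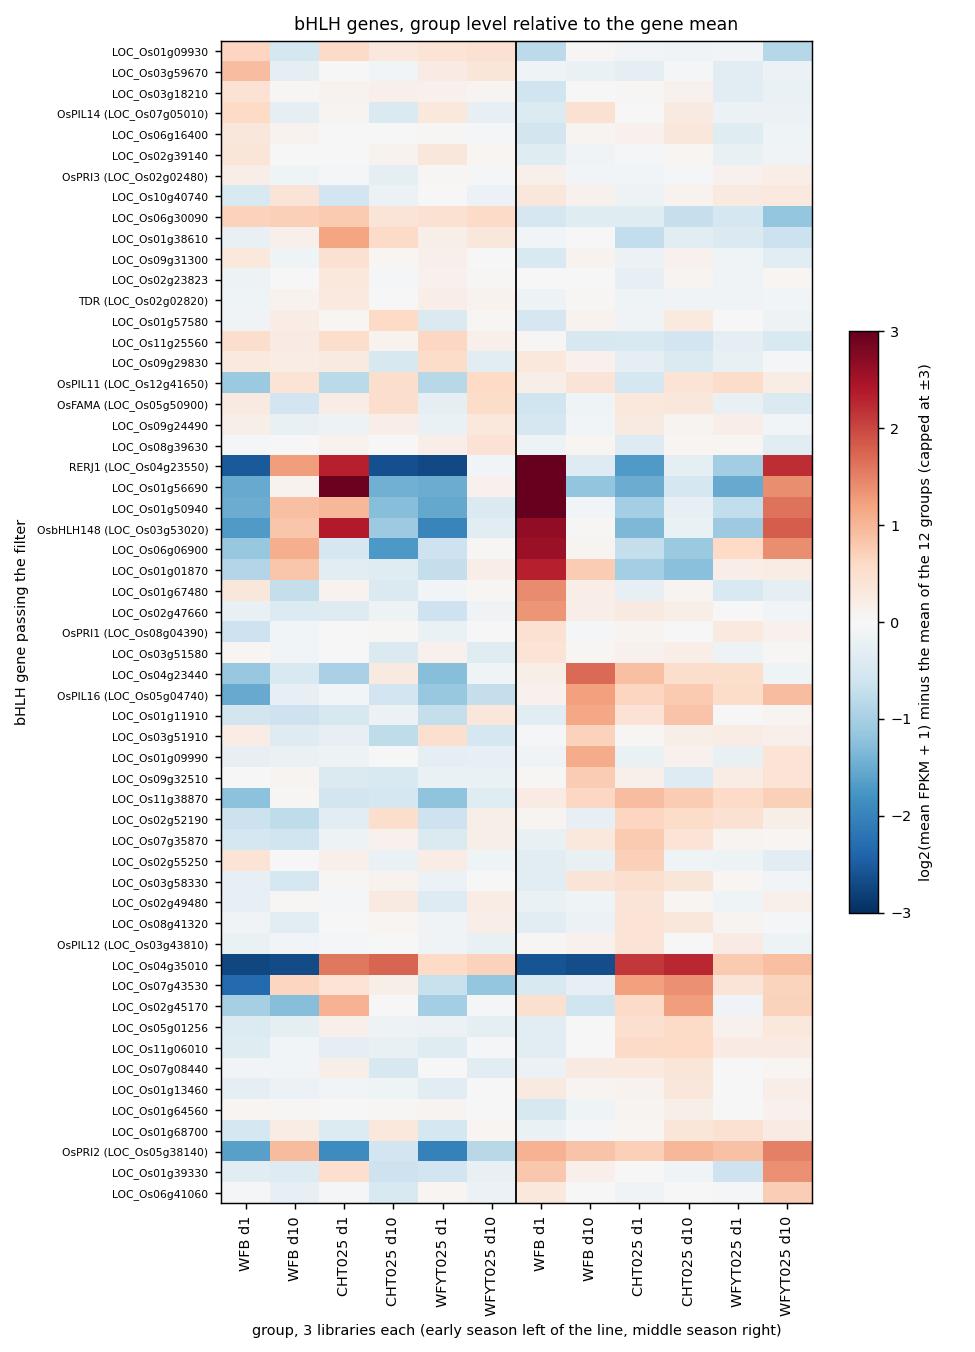
Levels of the 56 tested bHLH genes in the 12 groups. Each cell is log2(mean FPKM + 1) of 3 libraries minus the mean of the gene's 12 groups, red above and blue below, capped at 3 in either direction; rows are ordered by the group with the highest level. A block of genes led by RERJ1 is red in WFB on day 1 of the middle season, and LOC_Os04g35010 is blue in all WFB groups.

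From day 1 to day 10, RERJ1 and OsbHLH148, which belong to jasmonate responses, were among the genes that changed most, and their direction turned with variety and season. Changes are log2(FPKM + 1) differences from limma and are called at a Benjamini-Hochberg adjusted p under 0.05 over all tested genes. In WFB of the early season 21 of 56 bHLH genes rose (37.5%, against 25.0% of all tested genes) and 16 fell (28.6%, against 46.1%). The largest rises there were RERJ1 (log2 3.79 ± 0.25, SE, adjusted p = 3.68e-14), LOC_Os07g43530 (2.99 ± 0.08) and OsPRI2 (2.58 ± 0.07), and the largest falls, beside LOC_Os03g59670 (-1.22), whose fall follows from the filter, were LOC_Os01g09930 (-1.16 ± 0.14) and LOC_Os01g67480 (-1.06 ± 0.08). WFB of the middle season had 24 rises (42.9%, against 46.0%) and 18 falls (32.1%, against 20.6%). RERJ1 (-6.00 ± 0.25), LOC_Os01g56690 (-5.76 ± 0.15) and LOC_Os01g50940 (-3.37 ± 0.11) fell most, while LOC_Os04g23440 (1.52 ± 0.10) and LOC_Os01g11910 (1.48 ± 0.09) rose most, followed by LOC_Os01g09990 (1.22), whose rise follows from the filter.

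CHT025 of the early season had more falls than rises among its bHLH genes, 26 (46.4%, against 39.9% of all tested genes) and 13 (23.2%, against 25.1%). RERJ1 (-4.97 ± 0.25), LOC_Os01g56690 (-4.36 ± 0.15) and OsbHLH148 (-3.47 ± 0.09) fell most, and OsPIL11 (1.34 ± 0.08), OsPRI2 (1.32 ± 0.07) and LOC_Os04g23440 (1.22 ± 0.10) rose most. The middle season of CHT025 was the quietest, with 20 rises (35.7%, against 23.1%) and 6 falls (10.7%, against 20.5%), led by RERJ1 (1.35 ± 0.25) and OsbHLH148 (1.14 ± 0.09). In the hybrid, 27 genes rose (48.2%, against 33.0%) and 10 fell (17.9%, against 35.0%) in the early season, and 19 rose (33.9%, against 47.7%) and 9 fell (16.1%, against 16.6%) in the middle season. RERJ1, OsbHLH148 and LOC_Os01g56690 led the rises of WFYT025 in both seasons. Its largest falls were LOC_Os03g51910 (-1.0 ± 0.10) and LOC_Os09g29830 (-0.88 ± 0.11) in the early season and LOC_Os01g09930 (-0.78 ± 0.14) and LOC_Os04g23440 (-0.67 ± 0.10) in the middle season. No bHLH gene changed in 1 direction in all 6 day comparisons with limma (0 also at an unadjusted p under 0.05), where 1.1% of all tested genes rose and 0.43% fell.

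The balance of rises and falls depended on the scaling of the libraries. The median log2 change of all tested genes was between -0.15 and 0.18 in the day comparisons, and quantile normalization of the libraries moved it to between -0.07 and 0.04. After that normalization WFB of the early season had 25 rises and 8 falls (33.4% and 35.6% of all tested genes), CHT025 of that season had 19 rises and 18 falls (34.0% and 30.4%), and WFYT025 of the middle season had 10 rises and 27 falls (23.5% and 34.8%). The median change of the 56 genes as deposited ran from -0.07 in CHT025 of the early season to 0.17 in WFYT025 of the early season.

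**Figure D2:**
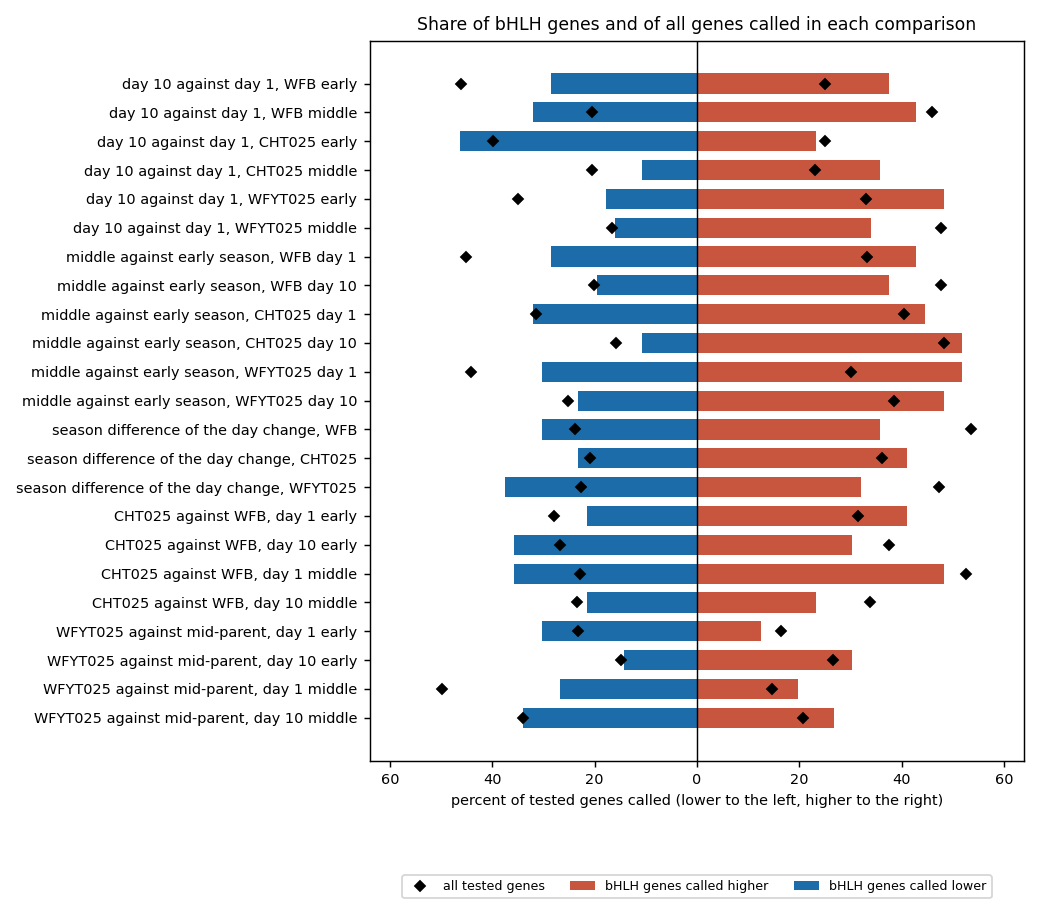
Percent of the 56 tested bHLH genes (bars) and of all 18585 tested genes (black diamonds) that were called in each comparison, higher to the right and lower to the left of 0. In WFB of the early season the bars reach 37.5% higher and 28.6% lower, where the diamonds stand at 25.0% and 46.1%.

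Between the seasons, 5 bHLH genes were called in 1 direction in every variety on both days. OsPIL16, a phytochrome-interacting factor-like gene, was higher in the middle season in all 6 comparisons, by log2 0.73 to 1.67. LOC_Os11g38870 was higher by 0.52 to 1.79, and LOC_Os01g13460, annotated with the response to abscisic acid and to wounding, was higher by 0.17 to 0.55. After quantile normalization the change of LOC_Os01g13460 was -0.01 in WFYT025 and 0.00 in WFB on day 10, neither called, and that of LOC_Os11g38870 in WFB on day 10 was 0.28 and not called. The latter call (0.52) was also lost without replicate 1 (0.36) or replicate 3 (0.42) of WFB on day 10 of the middle season. In all 6, LOC_Os06g30090 was lower by log2 values between -1.75 and -0.97, and LOC_Os11g25560 by values between -0.97 and -0.50. Over all tested genes, 7.43% were higher and 3.17% lower in all 6 comparisons. The plot of these season-dependent genes by library shows LOC_Os06g30090 between 4.40 and 8.52 FPKM in the 18 libraries of the early season and between 1.13 and 3.76 FPKM in the 18 of the middle season, with no overlap.

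By comparison, 24 bHLH genes were higher (42.9%, against 33.2% of all tested genes) and 16 lower (28.6%, against 45.2%) in the middle season in WFB on day 1. On day 10 of WFB 21 were higher (37.5%, against 47.7%) and 11 lower (19.6%, against 20.2%), which quantile normalization turned to 14 and 28 (30.7% and 35.6% of all tested genes). CHT025 had 25 higher (44.6%, against 40.5%) and 18 lower (32.1%, against 31.5%) on day 1. On its day 10 there were 29 higher (51.8%, against 48.3%) and 6 lower (10.7%, against 15.9%), or 22 and 14 (27.4% and 28.9%) after quantile normalization. The hybrid had 29 higher (51.8%, against 30.1%) and 17 lower (30.4%, against 44.1%) on day 1. On its day 10 there were 27 higher (48.2%, against 38.6%) and 13 lower (23.2%, against 25.2%), or 19 and 18 (26.8% and 37.4%) after quantile normalization. Season changes that were large without holding in every group included LOC_Os04g23440, higher by 2.15 ± 0.10 in WFB on day 10, 1.87 ± 0.10 in CHT025 on day 1 and 1.81 ± 0.10 in WFYT025 on day 1. LOC_Os01g11910 was higher by 1.79 ± 0.09 in WFB on day 10, and LOC_Os01g38610 was lower in CHT025 on day 1 (-1.93 ± 0.10).

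The change from day 1 to day 10 was itself compared between the seasons, as the middle-season change minus the early-season change. In WFB 20 bHLH genes had a higher difference (35.7%, against 53.5% of all tested genes) and 17 a lower one (30.4%, against 23.9%). CHT025 had 23 (41.1%, against 36.1%) and 13 (23.2%, against 21.0%), and WFYT025 18 (32.1%, against 47.4%) and 21 (37.5%, against 22.6%). Quantile normalization changed the counts to 13 and 29 for WFB (39.4% and 32.4% of all tested genes) and to 11 and 29 for WFYT025 (32.2% and 35.3%). The median difference of all tested genes was 0.35 in WFB and 0.25 in WFYT025 as deposited, and 0.07 and -0.03 after quantile normalization. Genes called in opposite directions in the seasons, with the difference itself called, numbered 18 in WFB, 13 in CHT025 and 7 in WFYT025. In WFB 9 rose in the early and fell in the middle season (10.8% of all tested genes did) and 9 did the reverse (26.8%). CHT025 had 2 of the first kind (5.38%) and 11 of the second (7.76%), and WFYT025 6 (8.44%) and 1 (18.8%).

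Of the jasmonate-associated factors, RERJ1 had the widest range of group means among the 56 tested genes, 8.27 on the log2(FPKM + 1) scale, and OsbHLH148 had 4.63. RERJ1 (LOC_Os04g23550), a bHLH gene induced by jasmonate and wounding, had levels of 319.6, 371 and 289.8 FPKM in the libraries of WFB on day 1 of the middle season. The same day in the early season gave 0.27, 0.22 and 0.11 FPKM in WFB. In CHT025 the seasons stood the other way round, with 30.3, 40.2 and 31.6 FPKM on day 1 of the early season and 0.75, 1.38 and 1.32 FPKM on day 1 of the middle season. So the day 1 level was high in 1 season in each parent, and not the same season, and no library of a high group overlapped one of a low group. The hybrid had 0.00, 0.10 and 0.08 FPKM on day 1 of the early season and 4.29, 1.0 and 1.76 on day 1 of the middle season.

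On day 10 the order was different. RERJ1 stood at 15.6 ± 1.37 FPKM in WFB, 0.11 ± 0.01 in CHT025 and 5.51 ± 1.04 in the hybrid in the early season. The middle-season levels were 4.29 ± 1.61, 4.75 ± 2.21 and 31.0 ± 2.65 FPKM for the same varieties. Among those 6 groups the hybrid of the middle season was highest, with libraries at 33.9, 28.8 and 30.2 FPKM. The difference between WFB and CHT025 of the middle season was not called (log2 0.09 ± 0.25 for CHT025 minus WFB, limma adjusted p = 0.791). From day 1 to day 10 RERJ1 rose in the hybrid in both seasons (log2 2.61 ± 0.25 and 3.37 ± 0.25), and the difference between those rises was not called (0.77 ± 0.36, limma adjusted p = 0.0592). It depended on the setting: it was called at 1.16 without replicate 1 of day 1 of the middle season, at 0.89 without replicate 2 of day 10 of the early season, and with the opposite sign (-1.28, limma adjusted p = 0.031) with a pseudocount of 0.1 FPKM.

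OsbHLH148 (LOC_Os03g53020), a jasmonate-inducible factor that binds JAZ proteins and is linked to drought tolerance, had the same groups on top. Its levels were 165, 191 and 151 FPKM in WFB on day 1 of the middle season and 139.5, 142 and 136 FPKM in CHT025 on day 1 of the early season. The hybrid on day 10 of the middle season followed with 99.8, 89.8 and 94.6 FPKM. The lowest group was the hybrid on day 1 of the early season with 5.73, 5.58 and 6.34 FPKM. Unlike RERJ1, the gene was above 5 FPKM in every library.

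The other members highest in WFB on day 1 of the middle season included 4 wide-ranging genes without a common name here. LOC_Os01g56690 reached 65.0, 84.9 and 71.4 FPKM there and 22.0, 25.0 and 21.1 FPKM in CHT025 on day 1 of the early season, and it was at or under 0.33 FPKM in every day 1 library of the other 4 groups. LOC_Os01g50940 reached 33.3, 36.3 and 22.7 FPKM in WFB on day 1 of the middle season, against 0.18, 0.09 and 0.20 FPKM on day 1 of the early season. LOC_Os06g06900 went from 0.77, 1.40 and 0.98 FPKM in the early season to 27.0, 26.3 and 25.6 in the middle season in WFB on day 1, but in CHT025 on day 1 of the early season it stood at only 2.41, 1.70 and 2.44. LOC_Os01g01870 rose with the season in WFB on day 1 from 4.11, 4.97 and 4.60 FPKM to 50.3, 57.4 and 43.2. In CHT025 its day change was not called in either season (log2 -0.04 ± 0.12 and -0.26 ± 0.12), although the middle-season value was called without replicate 2 of day 10 (-0.44, limma adjusted p = 0.00257).

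**Figure D3:**
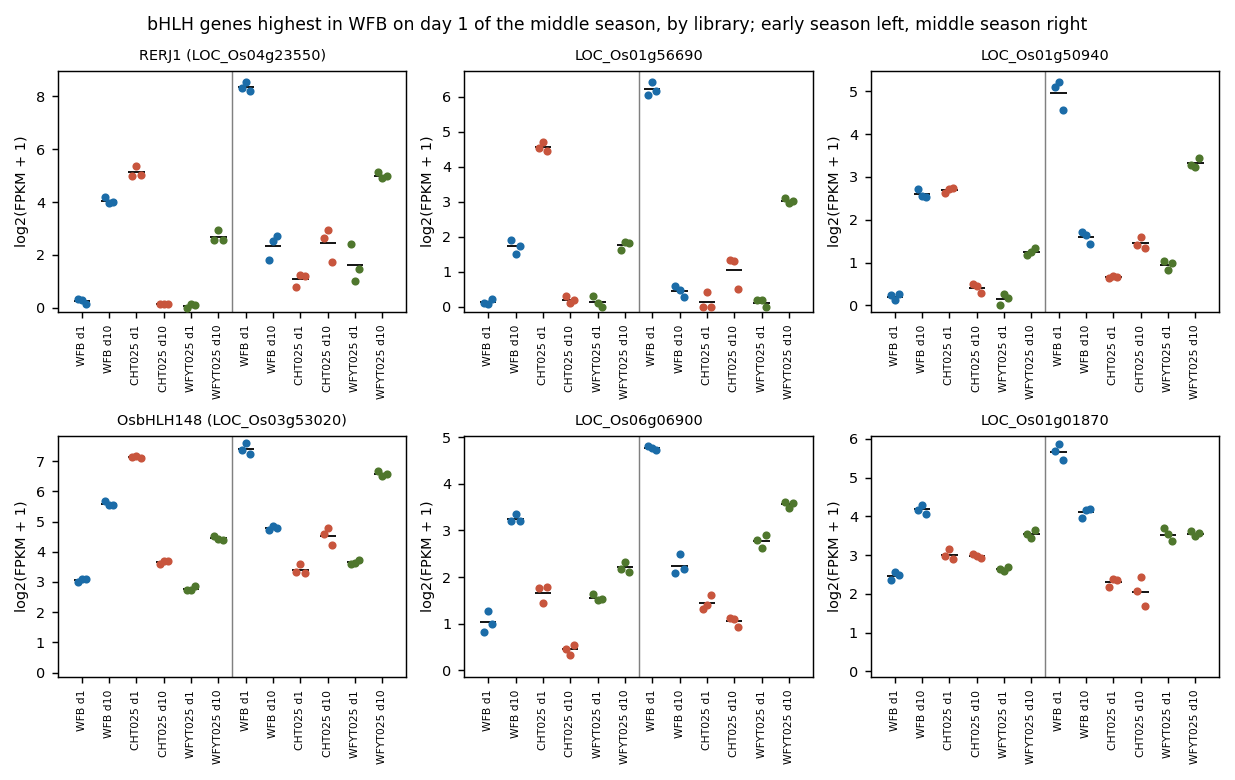
Levels of 6 bHLH genes in all 36 libraries, as log2(FPKM + 1). Points are libraries (blue WFB, red CHT025, green WFYT025), bars are group means, d1 and d10 are day 1 and day 10, and the line separates the seasons. All 6 genes are highest in WFB on day 1 of the middle season, and RERJ1, LOC_Os01g56690 and OsbHLH148 have a second high group in CHT025 on day 1 of the early season.

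JAZ repressors carry a ZIM domain and bind MYC-type factors, so genes described with ZIM were followed as partners of this group. The description was the only criterion. JAZ repressors described otherwise may be missing, and other ZIM genes may be included. Of 11 genes described with a ZIM domain or motif, 8 passed the filter. Their summed level was 1554 ± 193 FPKM in WFB on day 1 of the middle season, 316 ± 10.9 FPKM in CHT025 on day 1 of the early season, 47.1 ± 14.2 FPKM in WFYT025 on day 1 of the early season and 58.7 ± 4.21 FPKM in WFB on that day. The highest single gene was LOC_Os03g28940 with 895 ± 117 FPKM in WFB on day 1 of the middle season and 20.7 ± 1.87 FPKM on day 1 of the early season. From day 1 to day 10, WFB had 5 rises and 1 fall among the 8 in the early season (25.0% and 46.1% of all tested genes). Its middle season had 1 rise and 6 falls (46.0% and 20.6%). CHT025 had 6 falls and no rise in the early season (39.9% and 25.1%). In its middle season there were 4 rises and no fall (23.1% and 20.5%). WFYT025 had 7 and 6 rises (33.0% and 47.7%) and no fall (35.0% and 16.6%). At an unadjusted p under 0.05 in limma these directions with no call also had 0. RERJ1 itself rose, fell, fell, rose, rose and rose in these 6 comparisons, in the same libraries.

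Endosperm storage transcripts, which a leaf should lack, moved with 1 of these groups. The summed level of the 4 markers averaged 196 FPKM in WFB on day 1 of the middle season, with 164 to 236 in its libraries, and 17.8 to 106 FPKM in the other groups, the highest of which was CHT025 on day 1 of the middle season, where RERJ1 was low. Their part in the high values of that group was not tested. In CHT025 on day 1 of the early season the marker sum was 4.54 FPKM in the lowest library and 74.1 in the highest, where RERJ1 was between 30.3 and 40.2 FPKM in all 3.

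Among the OsPRI genes of iron regulation OsPRI2 varied most, and it was lower in the early season except in WFB on day 10. OsPRI1, OsPRI2 and OsPRI3 are positive regulators of the response to iron shortage and are targets of the HRZ ubiquitin ligases. OsPRI2 (LOC_Os05g38140) began the early season low: WFB had 9.67, 12.3 and 11.2 FPKM on day 1, CHT025 had 9.30, 9.05 and 8.66, and the hybrid had 7.80, 8.67 and 8.11. By day 10 of that season it reached 69.8, 75.6 and 68.0 FPKM in WFB, while CHT025 stood at 24.5, 22.4 and 25.3 and the hybrid at 18.6, 21.1 and 20.2. In the middle season the lowest of 18 libraries had 58.7 FPKM and the highest 109. Every library of the early season except those of WFB on day 10 was therefore below every library of the middle season. The rise during the early season was called in all 3 varieties (log2 2.58 ± 0.07 in WFB, 1.32 ± 0.07 in CHT025, 1.19 ± 0.07 in the hybrid). In the middle season OsPRI2 fell in WFB (-0.18 ± 0.07, limma adjusted p = 0.0266, a call lost without day 10 replicate 1 or 2, without day 1 replicate 1 and after quantile normalization) and rose in CHT025 (0.27 ± 0.07) and WFYT025 (0.63 ± 0.07). The seasons' day changes differed in all 3 varieties (-2.76 ± 0.10, -1.05 ± 0.10 and -0.56 ± 0.10).

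The other iron regulators followed here varied far less. Genes left out by rule were not followed, so this is no full survey of the iron regulators. OsPRI1 (LOC_Os08g04390) was lowest in WFB on day 1 of the early season, at 32.8, 33.0 and 34.2 FPKM, and highest in WFB on day 1 of the middle season, at 72.9, 71.5 and 72.2. OsPRI3 (LOC_Os02g02480) stayed between 16.6 and 28.3 FPKM in all libraries. OsbHLH156, which is needed for iron uptake by roots, was listed at 0 throughout. LOC_Os07g35870 shares the deposited description of the 3 OsPRI genes and had uneven replicates, for instance 22.3, 13.2 and 13.1 FPKM in CHT025 on day 1 of the early season and 19.6, 33.1 and 20.5 FPKM on day 10 of the middle season. In 5 of its 12 groups the highest library exceeded the lowest by more than 1.5 times, as it did in 4 of 12 groups for LOC_Os11g38870, one of the genes higher in the middle season throughout.

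Among the phytochrome-interacting factor-like genes, OsPIL11 rose during the early season and OsPIL14 fell. OsPIL11 (LOC_Os12g41650) stood at 5.62 ± 0.436 FPKM on day 1 and 17.9 ± 0.665 FPKM on day 10 of the early season in WFB (log2 1.52 ± 0.08). CHT025 had 7.11 ± 0.204 and 19.6 ± 1.29 FPKM on these days (1.34 ± 0.08), and WFYT025 had 6.95 ± 0.49 and 20.4 ± 0.618 FPKM (1.43 ± 0.08). In the middle season it already stood at 15.2 ± 1.90 in WFB and 19.8 ± 1.61 in WFYT025 on day 1, but at 8.93 ± 1.28 in CHT025, where it rose to 17.8 ± 1.34. It rose in WFB (0.20 ± 0.08, a call lost after quantile normalization, 0.08, without day 1 replicate 2, 0.12, and without day 1 replicate 1 or day 10 replicate 2 or 3) and fell in WFYT025 (-0.32 ± 0.08) of the middle season. OsPIL14 (LOC_Os07g05010) fell in the early season in WFB (-0.86 ± 0.07), CHT025 (-0.51 ± 0.07) and WFYT025 (-0.57 ± 0.07). It rose in the middle season in WFB (0.88 ± 0.07) and CHT025 (0.27 ± 0.07), with -0.01 ± 0.07 in WFYT025. After quantile normalization the WFYT025 value was a called fall (-0.33, limma adjusted p = 0.000107).

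OsPIL16 (LOC_Os05g04740) was between 2.12 and 8.42 FPKM in the libraries of the early season and between 9.01 and 22.6 in those of the middle season, without overlap. It rose from day 1 to day 10 in WFB in both seasons (1.28 ± 0.09 and 1.11 ± 0.09), whereas early-season CHT025 showed a fall (-0.47 ± 0.09). OsPIL12 (LOC_Os03g43810) stayed between 14.2 and 25.1 FPKM. The phytochromes, the red-light receptors these factors bind, had called day changes in the early season that were falls: 3 of 3 in WFB, 2 of 3 in CHT025 and 3 of 3 in WFYT025, where 46.1%, 39.9% and 35.0% of all tested genes fell. PHYC, for example, had 37.1 ± 0.989 FPKM on day 1 and 16.3 ± 1.17 on day 10 in WFB. No phytochrome fell in the middle season, when 3 rose in WFB, 1 in CHT025 and 3 in WFYT025 (0 fell also at an unadjusted limma p under 0.05), against 46.0%, 23.1% and 47.7% of all tested genes that rose.

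**Figure D4:**
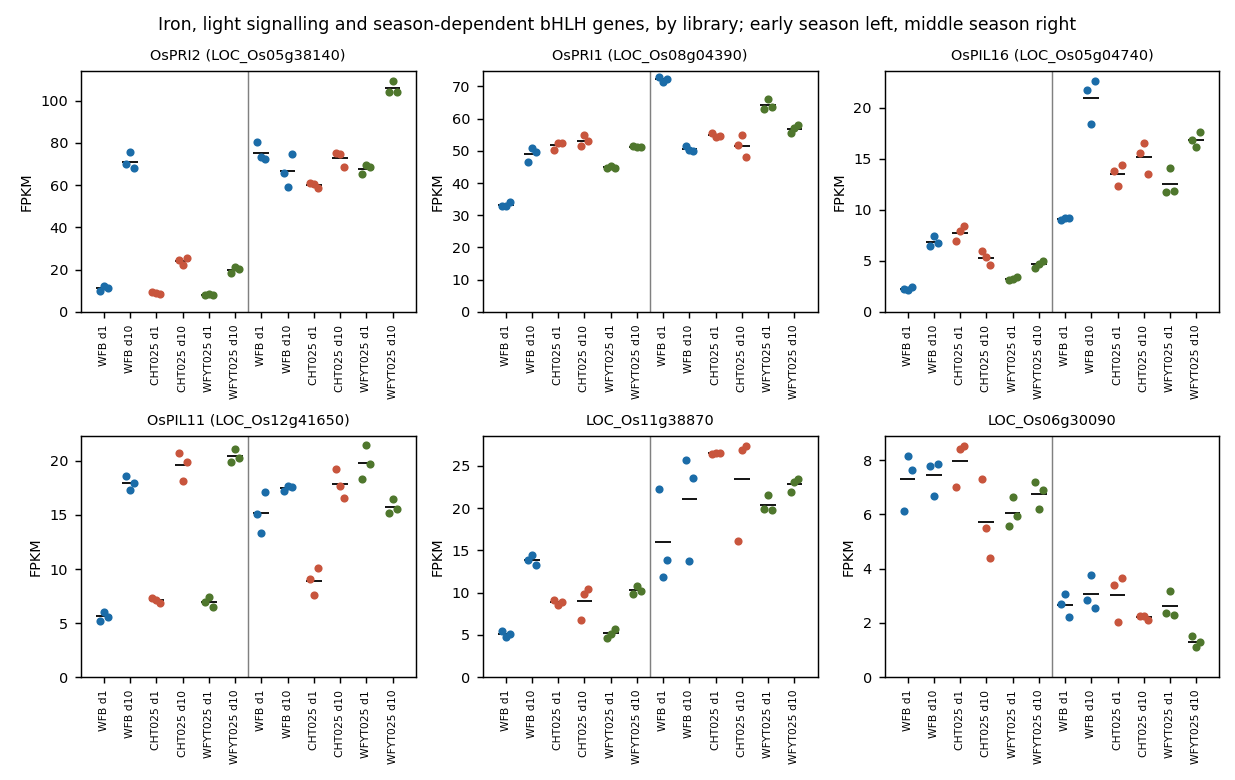
FPKM of 6 bHLH genes in all 36 libraries (blue WFB, red CHT025, green WFYT025; bars are group means, the line separates the seasons, and each panel has its own scale from 0). OsPIL16 is higher and LOC_Os06g30090 lower in the middle season without overlap of the libraries, OsPRI2 is higher in the middle season except in WFB on day 10, and OsPIL11 is low on day 1 of the early season in all 3 varieties.

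The stomatal, tapetum and other bHLH factors named next were low or absent, with no library over 2.66 FPKM. Of the stomatal factors, OsSPCH1, OsSPCH2 and OsMUTE act early in the lineage and the first 2 were listed at 0, while OsMUTE reached at most 0.14 FPKM. OsFAMA (LOC_Os05g50900), which acts in the last step of guard cell formation, had 0.45 to 2.66 FPKM and was called in both directions: it fell in WFB of the early season (-0.83 ± 0.11) and rose in WFYT025 of that season (0.82 ± 0.11). Of the tapetum factors, TDR (LOC_Os02g02820) passed the filter at 0.24 to 1.20 FPKM and had the smallest range of group means among the 56 tested genes on log2(FPKM + 1), a scale that compresses low levels, while UDT1, EAT1 and TIP2 stayed at or under 0.49 FPKM. The atypical HLH proteins ILI1, BU1 and BUL1, which act in brassinosteroid responses and cell length, the seed pigment gene Rc and the flowering gene LF were not tested, with no library over 0.24 FPKM in any of them. Genes of the brassinosteroid pathway were nonetheless detected. Of BRI1, BAK1, GSK2 and BZR1, BAK1 was the highest at 21.2 to 40.7 FPKM in group means, and the others lay between 0.81 and 4.76. From day 1 to day 10 of the early season 1 of the 4 rose and 1 fell in WFB (25.0% and 46.1% of all tested genes). CHT025 also had 1 rise and 1 fall (25.1% and 39.9%), while 3 rose in WFYT025 (33.0% of all tested genes did). In the middle season 3 rose in WFB (against 46.0%), 2 in CHT025 (against 23.1%) and 2 in WFYT025 (against 47.7%).

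The parents differed most clearly in LOC_Os04g35010, a gene annotated with embryo development ending in seed dormancy. WFB had 0.00 to 0.24 FPKM in its 12 libraries, CHT025 18.7 to 32.8 and the hybrid 8.93 to 12.2, and the varieties did not overlap. CHT025 exceeded WFB by log2 4.30, 4.43, 4.70 and 4.93, each ± 0.07, on day 1 and day 10 of the early and of the middle season in that order. The arithmetic mean of the parents' FPKM was 9.70 and the hybrid's level 9.41 on day 1 of the early season, against 11.0 and 9.97 on day 10. In the middle season the pair was 14.3 and 10.8 on day 1, then 15.9 and 11.8 on day 10. On the log2(FPKM + 1) scale the hybrid was above the mid-parent by 1.02 to 1.18. The day change of this gene was called in CHT025 of the early season (0.17 ± 0.07), but not without replicate 1 or 2 of either day or with a pseudocount of 0.1 FPKM, and the other 5 values lay between -0.08 and 0.15.

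LOC_Os02g52190 was the other gene higher in CHT025 in all 4 parent comparisons, by log2 0.32 to 1.30, at levels of 0.18 to 2.78 FPKM over all libraries. The smallest of these, on day 1 of the early season, was not called (0.29 to 0.33) without WFB replicate 1, 2 or 3 or CHT025 replicate 1 or 3. No bHLH gene was lower in all 4 with limma (0 also at an unadjusted p under 0.05), and over all tested genes 8.23% were higher and 4.6% lower in all 4. LOC_Os07g43530 depended on day and season. On day 1 of the early season WFB had 0.54, 0.89 and 0.69 FPKM and CHT025 10.5, 10.3 and 10.6 (log2 2.76 ± 0.08), while on day 10 WFB had risen to 12.9, 12.2 and 12.4 and was above CHT025 at 9.05, 8.89 and 8.49 (-0.46 ± 0.08). In the middle season CHT025 was higher on both days (1.70 ± 0.08 and 1.63 ± 0.08). LOC_Os02g45170, annotated with kinase activity beside its bHLH description, was higher in CHT025 on day 1 of the early season (2.06 ± 0.12) and on day 10 of both seasons (1.26 ± 0.12 and 1.86 ± 0.12), with 0.09 ± 0.12 on day 1 of the middle season.

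**Figure D5:**
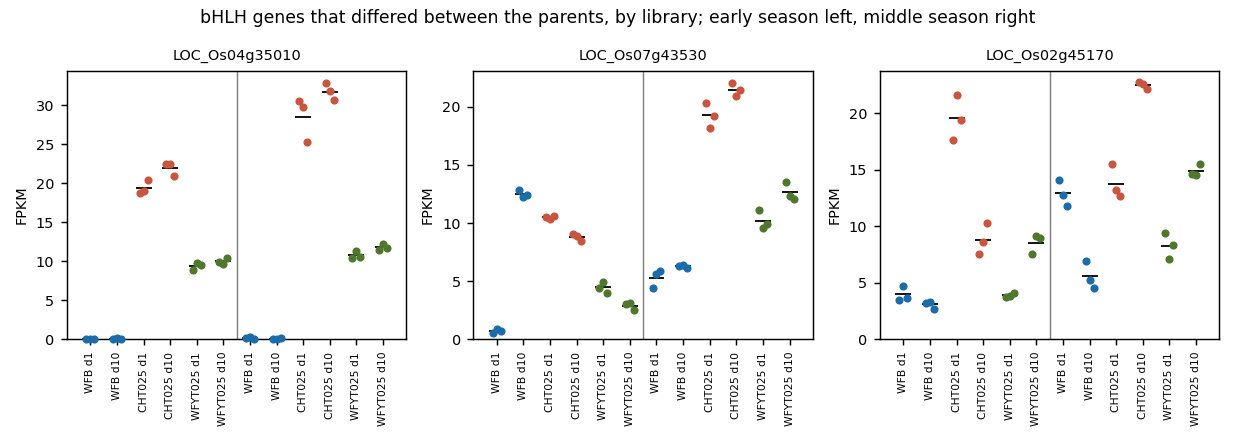
FPKM of 3 bHLH genes in all 36 libraries (blue WFB, red CHT025, green WFYT025; bars are group means, the line separates the seasons, and each panel has its own scale from 0). LOC_Os04g35010 is at or under 0.24 FPKM in WFB, between 8.93 and 12.2 in the hybrid and above 18 in CHT025.

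In counts, CHT025 had 23 bHLH genes higher (41.1%, against 31.4% of all tested genes) and 12 lower (21.4%, against 28.0%) than WFB on day 1 of the early season. On day 10 of that season there were 17 (30.4%, against 37.5%) and 20 (35.7%, against 26.8%). The middle season gave 27 (48.2%, against 52.5%) and 20 (35.7%, against 22.8%) on day 1 and 13 (23.2%, against 33.9%) and 12 (21.4%, against 23.4%) on day 10. On day 1 RERJ1, LOC_Os01g56690 (4.43 and -6.08) and OsbHLH148 differed in opposite directions in the seasons. RERJ1 was higher in CHT025 by 4.86 ± 0.25 in the early season and lower in the middle season (-7.26 ± 0.25), and OsbHLH148 had 4.07 ± 0.09 and -4.01 ± 0.09.

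The hybrid was set against the mid-parent, the average of the parents' log2 levels. RERJ1 was below it on day 1 of the early (-2.61 ± 0.22) and the middle season (-3.10 ± 0.22) and above it on day 10 of the middle season (2.60 ± 0.22). OsbHLH148 (-2.31, -1.75 and 1.92, each ± 0.08) and LOC_Os01g50940 (-1.30, -1.87 and 1.80, each ± 0.10) had the same signs. On day 10 of the early season the values were smaller, 0.59 ± 0.22 for RERJ1, a call lost without WFB replicate 2 or WFYT025 replicate 2 or with no filter on low values, -0.18 ± 0.08 for OsbHLH148, which was not called, and -0.25 ± 0.10 for LOC_Os01g50940, which turned to 0.01 with a pseudocount of 0.1 FPKM and was called in the other settings only without CHT025 replicate 3 or WFB replicate 3, with the replicate number as a block or after quantile normalization. LOC_Os07g43530 was below the mid-parent there (-1.58 ± 0.07), as was OsPRI2 (-1.02 ± 0.06). On day 1 the lower parent was WFB in the early and CHT025 in the middle season for RERJ1, OsbHLH148 and LOC_Os01g50940. Against that parent the hybrid's RERJ1 differed by -0.18 ± 0.25 and 0.53 ± 0.25, neither called. OsbHLH148 had -0.28 and 0.26, both called, and LOC_Os01g50940 had -0.06, not called, and 0.28, called. A hybrid level near the lower parent lies below the mid-parent. Where the parents differ, the mid-parent lies below the arithmetic mean of their FPKM, so the sign of a value or call can depend on the scale. For RERJ1 on day 10 of the early season that mean was 7.85 FPKM, above the hybrid's 5.51. LOC_Os06g06900 (log2 0.36 ± 0.10 against the mid-parent) had 4.45 and 3.63 FPKM there. Both genes kept their sign on both scales in the other groups.

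On day 1 of the early season 7 bHLH genes were above the mid-parent (12.5%, against 16.5% of all tested genes) and 17 below (30.4%, against 23.3%), or 9 and 12 (22.6% and 16.9%) after quantile normalization. Day 10 of that season had 17 above (30.4%, against 26.6%) and 8 below (14.3%, against 14.8%), or 13 and 10 (22.1% and 19.4%). On day 1 of the middle season 11 were above (19.6%, against 14.6%) and 15 below (26.8%, against 49.9%), and quantile normalization turned this to 28 and 8 (32.0% and 25.7%). The median of all tested genes in that comparison was -0.18 as deposited and 0.03 after normalization. On day 10 of the middle season 15 were above (26.8%, against 20.7%) and 19 below (33.9%, against 34.0%).

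Levels beyond both parents were most frequent on day 10 of the middle season. A gene was counted when the hybrid was called higher than each parent, or lower than each. There were 11 above (10.8% of all tested genes were) and 15 below (15.8%) on that day. The 5 largest by the smaller of the 2 differences were RERJ1 (2.56 against CHT025 and 2.64 against WFB), LOC_Os01g56690 (1.98 and 2.57), OsbHLH148 (2.04 and 1.80), LOC_Os01g50940 (1.87 and 1.72) and LOC_Os06g06900 (2.51 and 1.32), all above. OsPRI2 was also above both, with 104, 109 and 104 FPKM in the hybrid against at most 75.2 in either parent. LOC_Os01g11910 (-0.78 and -1.10) and LOC_Os04g23440 (-0.65 and -1.82) were below both. The other groups had fewer: 3 above (4.07%) and 5 below (8.16%) on day 1 of the early season, 5 above (6.52%) and 3 below (3.47%) on day 10, and 3 above (5.7%) and 5 below (23.6%) on day 1 of the middle season. Quantile normalization gave 4 and 1 (6.51% and 5.73% of all tested genes), 5 and 5 (5.51% and 4.47%), and 11 and 2 (14.3% and 9.81%) for these 3. On day 10 of the early season LOC_Os07g43530 was below both parents (-1.35 against CHT025 and -1.81 against WFB), with 3.02, 3.11 and 2.48 FPKM in the hybrid. The count of both kinds together for day 1 of the early season, 8, fell to 5 without any 1 of the hybrid's 3 libraries of that group, and that for day 1 of the middle season, also 8, to 5 without CHT025 replicate 3 or WFYT025 replicate 2 of that day.

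The authors' deposited tables call genes by another criterion: no called gene had a log2 ratio under 1 in size, so their counts cannot be set against those above. The authors' deposited tables mark 12 of the 131 bHLH genes as higher (5.2% of the 34623 genes) and 5 as lower (9.64%) on day 10 for early-season WFB, and 11 (5.64%) and 11 (3.69%) in the middle season. For CHT025 the authors' deposited tables give 4 (3.3%) and 8 (5.64%) in the early and 4 (1.78%) and 2 (2.59%) in the middle season. WFYT025 has 16 (5.54%) and 2 (5.31%), then 7 (6.43%) and 1 (2.09%), in the authors' deposited tables.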

How the data were processed

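Paired-end RNA-seq of leaf RNA was deposited as 6 tables, each with day 1 and day 10 of a variety in a season. The FPKM values in the deposited tables were made by the authors, and per the submitters' processing notes the tools were HISAT, StringTie and edgeR. Their versions and roles, and the genome build, were not given in the sources used here. Log2 ratios (day 1 over day 10) and adjusted p-values, deposited by the authors, were used only where the authors' tables are named. The table of WFYT025 in the early season held 1 broken line, 7534 exact repeats of other lines and 7381 genes found in no other table, all at 0 FPKM, which were dropped. Sums of FPKM were 532276 to 567391 per library; FPKM keeps no depth, so its precision comes from the 3 libraries per group.

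All 36 libraries entered 1 fit of 12 group means with limma 3.58.1 (R 4.3.3, trend on mean level) on log2(FPKM + 1), which understates changes of low genes. A gene was tested if 3 or more libraries reached 1 FPKM, which left 18585 genes, with 24 residual degrees of freedom and Benjamini-Hochberg adjustment over all of them. The script was tested on simulated data. Alternatives were a pseudocount of 0.1 FPKM, quantile normalization, no filter, a replicate block and leaving out each library.

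Genes were named if they belonged to a role list, were among the 10 most abundant, were among the 3 largest rises or falls of a comparison without overlap between groups, were called in 1 direction throughout a family of comparisons, or lay outside both parents. The members and lists were chosen with earlier results of these data known. None of the 34623 gene IDs matched the RefSeq table at hand (0 matches), so no sequence or position is given.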

Additional observations from a re-analysis of the deposited data

Results flagged for a closer look

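For 16 gene and variety pairs the change from day 1 to day 10 was called in opposite directions in the seasons, with at least 0.5 on the log2 scale in both and with the difference itself called by limma. That size was chosen after the values were seen. Differences are the middle-season change minus the early-season change. In WFB, 7 of the 10 were negative: RERJ1 (-9.79), LOC_Os01g56690 (-7.35), LOC_Os01g50940 (-5.76), OsbHLH148 (LOC_Os03g53020, -5.15), LOC_Os06g06900 (-4.75), LOC_Os01g01870 (-3.27) and OsPRI1 (LOC_Os08g04390, -1.05). These genes rose in the early and fell in the middle season. The other 3 did the reverse: LOC_Os01g09930 (1.99), OsPIL14 (LOC_Os07g05010, 1.75) and LOC_Os03g51910 (1.34). In CHT025 all 5 were positive: RERJ1 (LOC_Os04g23550, 6.32), LOC_Os01g56690 (5.27), OsbHLH148 (LOC_Os03g53020, 4.61), LOC_Os01g50940 (3.07) and LOC_Os02g45170 (1.74). WFYT025 had LOC_Os04g23440 (-1.82).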

How the results depend on the processing

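Of 450 values of named genes, 439 kept their direction and their side of the threshold with a pseudocount of 0.1 FPKM, 398 with quantile normalization, 446 without the filter and 450 with the replicate block. Same-numbered libraries did not deviate together (median r -0.012 over 198 pairs, from -0.378 to 0.352, and 4 of 36 libraries correlated best with their own number), so the numbers are not taken as pairs, and the replicate block moved no count by over 1.5 times. With leave-one-out, 2986 of 3078 values were kept, 69 lost and 23 gained a call and 0 reversed. Quantile normalization reversed the season change of OsPRI1 (LOC_Os08g04390) on day 10 in WFB (-0.10) and WFYT025 (-0.068), of OsPRI3 (LOC_Os02g02480) in WFB on day 10 (-0.17), of OsPIL12 (LOC_Os03g43810) on day 10 in WFB (-0.023) and CHT025 (-0.22) and of LOC_Os01g13460 on day 10 in WFYT025 (-0.011). It also reversed the middle-season day change in WFYT025 of OsPRI3 (-0.24), LOC_Os01g01870 (-0.30), LOC_Os04g35010 (-0.21) and LOC_Os07g43530 (-0.052), and the mid-parent values on day 1 of the middle season of LOC_Os06g06900 (0.016) and LOC_Os07g43530 (0.21). The pseudocount of 0.1 FPKM reversed LOC_Os01g50940 against the mid-parent on day 10 of the early season (0.015) and the season difference of RERJ1 (LOC_Os04g23550) in WFYT025 (-1.28); the cause was not tested. Genes outside both parents on day 1 of the early season numbered 8, against 5 with quantile normalization, 5 without the filter and 5 to 8 with leave-one-out. On day 1 of the middle season they numbered 8, against 13 with quantile normalization and 5 to 8 with leave-one-out. The other 25 totals of higher and lower calls stayed within 1.5 times, but counts of 1 direction moved more. After quantile normalization, falls from day 1 to day 10 went from 16 to 8 in early-season WFB, and in middle-season WFYT025 rises went from 19 to 10 and falls from 9 to 27. Genes lower in the middle season on day 10 went from 11 to 28 in WFB and from 6 to 14 in CHT025. The season differences of the day change went from 20 higher and 17 lower to 13 and 29 in WFB, and from 18 higher to 11 in WFYT025. Against the mid-parent on day 1 of the middle season, 11 above and 15 below became 28 and 8. Genes below both parents went from 5 to 1 on day 1 and from 3 to 5 on day 10 of the early season, and on day 1 of the middle season 3 above and 5 below became 11 and 2. Without the filter, falls in middle-season CHT025 went from 6 to 11 and genes below both parents on day 1 of the early season from 5 to 3. Depth is unknown, so the limit for genes near 0 FPKM cannot be given.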
